A study of Mus musculus with 16 samples.

Results

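The Fos, Jun and Egr immediate early genes are 10 transcription factor genes, Fos, Fosb, Fosl1, Fosl2, Jun, Junb, Jund, Egr1, Egr2 and Egr3, described here in kidneys of mouse pups that lack the water channel gene Aqp11. They were found by symbol among the 18194 genes that a probe set of the array names alone, and 16 of the array's 45101 probe sets belong to them. A probe set is a group of short probes for the same transcript, and 6 of the 10 genes have 2 of them. The genes were chosen from values of this same comparison, the knockout minus wild-type differences known from earlier results of these data, so their differences between the genotypes are given as a description with no test. Kidney RNA of each pup was hybridised to its own Affymetrix Mouse Genome 430 2.0 array at 7 days of age. The knockout group was 9 Aqp11-/- pups, 4 females and 5 males, and the wild-type group was 7 Aqp11+/+ littermates, 4 females and 3 males. All pups came from matings of heterozygous parents, and the strain label is C57BL/6J, reached by backcrossing from 129/SvEvBrd. The labels name no Cre driver and no cell type for the deletion, the RNA is of whole kidney, and the pups came from 5 breeding pairs, so some share parents. Each array carries a number such as 2-4 whose leading figure runs from 1 to 5. It may mark the breeding pair, but the labels do not say so.

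Immediate early genes are transcribed within minutes of a stimulus without new protein synthesis, and their mRNAs are short-lived. Fos and Jun proteins pair through leucine zippers to form the factor AP-1, while Egr proteins bind GC-rich sites through zinc fingers. In kidney the family is known for its induction in tubule cells after ischaemia, toxins and growth factors, and for its quick response to handling of tissue and cells.

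Promoters of 3 members with large differences are printed with the stretches that a motif search marked in them. RefSeq promoters on GRCm38.p6, 250 bases before to 50 after an annotated start, were at hand for 7 of the 10 genes in 11 windows. Capitals mark the CArG box of serum response factor in Egr2 (chr10:67537619-67537918, plus strand), and the letters TATAAA in Fos (chr12:85473640-85473939, plus strand) and Junb (chr8:84978699-84978998, minus strand).
Egr2: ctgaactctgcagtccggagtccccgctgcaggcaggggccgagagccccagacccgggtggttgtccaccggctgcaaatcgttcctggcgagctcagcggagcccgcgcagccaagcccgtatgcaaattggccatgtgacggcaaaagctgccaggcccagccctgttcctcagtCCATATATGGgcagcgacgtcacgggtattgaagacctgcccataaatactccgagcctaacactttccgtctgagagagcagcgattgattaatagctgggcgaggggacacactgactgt
Fos: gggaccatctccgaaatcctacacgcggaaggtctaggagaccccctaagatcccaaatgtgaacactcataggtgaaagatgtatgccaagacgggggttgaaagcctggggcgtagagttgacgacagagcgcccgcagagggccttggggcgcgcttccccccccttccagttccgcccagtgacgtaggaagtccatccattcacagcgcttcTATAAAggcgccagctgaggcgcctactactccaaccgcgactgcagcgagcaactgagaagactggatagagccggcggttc
Junb: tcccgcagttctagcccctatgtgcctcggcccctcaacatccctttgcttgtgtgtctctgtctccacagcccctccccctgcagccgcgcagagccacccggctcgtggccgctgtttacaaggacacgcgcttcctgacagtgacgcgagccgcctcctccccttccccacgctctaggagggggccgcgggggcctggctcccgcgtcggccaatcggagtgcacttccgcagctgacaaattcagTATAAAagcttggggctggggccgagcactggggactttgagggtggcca
The CArG box CCATATATGG of Egr2 lies 72 to 63 bases before this start, and a window for another annotated start of Egr2 holds CCTTTTTTGG at the same distance. CArG boxes were searched by name on both strands, and 1.64% of all 32544 promoters in the table hold one. TATAAA lies 33 to 28 bases before the start of Fos and begins at the start of Junb, and 13.6% of all promoters hold it on either strand. The Egr motif GCGNGGGCG, present in 5.60% of all promoters, was found in Fosl2, at 79 to 71 bases before the start, and in Fosb, at 50 to 42 bases. Neither the AP-1 motif TGACTCA (5.19% of all promoters) nor the cyclic AMP element TGACGTCA (1.80%) was among the letters of the 11 windows. Only these exact letters were searched, so variants of either element would be missed. These matches describe the sequence only.

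Levels are log2 signal after quantile normalization, which gives all arrays the same distribution of values. Signals under 6.89 were set to that floor, 2.78 in log2, so a fold against arrays at the floor is a lower bound. Aqp11 checked the labels: its brightest probe set averaged 2.95 ± 0.33 in knockout kidneys (SD, n = 9; 7 arrays at the floor) and 7.87 ± 0.16 in wild-type kidneys (SD, n = 7), at least 30.3-fold lower in the knockout. Before normalization the mean signal of an array, with 2% of probe sets trimmed at each end, ran from 111 to 236. It did not separate the genotypes (exact permutation p = 0.929, two-sided), but the 16 arrays part into 8 brighter ones, 4 knockout and 4 wild type, and 8 dimmer ones, 5 knockout and 3 wild type, used below as a technical grouping. Macrophage, tubule and injury markers, which differ strongly between the genotypes, are given after the members. The number of arrays limits the precision of all values.

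Egr2, also called Krox-20 and best known for hindbrain patterning and Schwann cell myelination, had the largest difference among the members. On probe set 1427683_at the knockout kidneys had a lowest, median and highest level of 6.73, 7.09 and 7.46, against 2.78, 3.71 and 4.42 in wild-type kidneys. The groups did not overlap. In log2 the knockout arrays varied less than the wild-type arrays, whose levels were close to the floor. Before the log the knockout signals ran from 106 to 176 and the wild-type signals from 6.89 to 21.4, a wider range in the knockout. The means were 7.06 ± 0.22 (SD, n = 9) in knockout and 3.70 ± 0.65 (SD, n = 7) in wild type, with 1 wild-type array at the floor, so Egr2 signal was at least 10.3-fold higher in knockout kidneys. In bulk kidney RNA, more cells with a transcript and more transcript per cell cannot be told apart.

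The other Egr2 probe set, 1427682_a_at, was more variable. It ran from 4.27 in knockout 5-2 to 7.30 in knockout 1-2, with a median of 5.62, against 2.78 to 4.35 with a median of 3.26 in wild type, where 3 arrays lay at the floor. Knockout 5-2 fell below wild-type 3-1, and the other 8 knockout arrays stood above every wild-type array. The mean difference of 2.47 is at least 5.55-fold.

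Egr1, the most widely induced Egr factor and an activator of growth factor and matrix genes, had a lowest, median and highest level of 9.15, 9.58 and 9.89 in knockout kidneys and 8.06, 8.60 and 8.84 in wild-type kidneys. All 9 knockout arrays stood above all 7 wild-type arrays. The means of 9.55 ± 0.21 (SD, n = 9) in knockout and 8.54 ± 0.26 (SD, n = 7) in wild type differ 2.00-fold. No array lay near the floor for Egr1.

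Egr3, a factor studied mainly in muscle spindles, lymphocytes and neurons, was too dim to enter the fit. Its probe set 1436329_at ran from 3.55 to 5.65 with a median of 4.37 in knockout and from 2.79 to 3.88 with a median of 3.31 in wild type, a mean difference of 1.27 with 7 knockout arrays above every wild-type array. On its other probe set, 1421486_at, no knockout array stood above the highest wild-type array, and the mean difference was -0.33. The probe sets of Egr3 thus gave opposite signs, both at levels close to the floor.

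Among the Fos genes, Fosl1, which encodes the AP-1 subunit Fra-1, had the largest difference. Probe set 1417487_at had a lowest, median and highest level of 4.52, 5.12 and 6.02 in knockout kidneys, against 2.78, 2.78 and 3.48 in wild-type kidneys. The groups did not overlap, and 4 of 7 wild-type arrays lay at the floor. The means were 5.35 ± 0.52 (SD, n = 9) in knockout and 2.98 ± 0.27 (SD, n = 7) in wild type, at least 5.20-fold. The dimmer Fosl1 probe set, 1417488_at, did not enter the fit. It lay above the floor on 7 of 9 knockout arrays, up to 4.69, and at the floor on all 7 wild-type arrays.

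Fos, the founding member of the family, had 7.90, 7.48, 7.48, 8.09, 7.54, 7.48, 7.05, 6.86 and 6.92 in knockout arrays 1-2, 2-3, 2-4, 3-2, 3-3, 3-4, 4-3, 4-4 and 5-2. The wild-type arrays 1-1, 2-1, 2-2, 3-1, 4-1, 4-2 and 5-1 had 5.98, 6.88, 6.68, 6.05, 6.40, 5.65 and 5.56. The groups touch at a single point, where wild-type 2-1 is just above knockout 4-4, and 8 knockout arrays stood above every wild-type array. The means of 7.42 ± 0.42 (SD, n = 9) in knockout and 6.17 ± 0.50 (SD, n = 7) in wild type differ 2.38-fold. The highest wild-type arrays for Fos, 2-1 and 2-2, also had the highest macrophage marker means of the wild-type group, 7.72 and 7.65, against 6.95 to 7.18 on the other 5. Without both arrays, a comparison chosen after seeing the data, the Fos difference was 1.49 in place of 1.25. Leaving out the highest wild-type arrays for Fos had to widen its difference, so nothing is read from this. The part of macrophages in the Fos levels was not tested.

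Fosl2, which encodes Fra-2, and Fosb differed less. Fosl2 on probe set 1437247_at ran from 8.06 to 8.93 with a median of 8.50 in knockout and from 7.82 to 8.37 with a median of 8.17 in wild type, a difference of 0.40 or 1.32-fold with overlap. Its other probe set, 1422931_at, had a difference of 0.28, with knockout arrays at 3.85 to 5.31 and wild-type arrays at 3.89 to 5.06. Fosb, a relative of Fos induced by the same stimuli, lay at the floor on 5 knockout and 5 wild-type arrays and reached at most 4.12 in knockout and 3.43 in wild type. No difference of Fosb could be measured at that signal.

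Junb, an AP-1 subunit with weaker transactivation than Jun, had the largest difference of the Jun genes. It had a lowest, median and highest level of 6.55, 6.92 and 7.61 in knockout kidneys and 5.29, 5.89 and 6.25 in wild-type kidneys. The groups did not overlap. The means of 6.97 ± 0.32 (SD, n = 9) in knockout and 5.83 ± 0.35 (SD, n = 7) in wild type differ 2.22-fold.

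Jun, the partner that lets Fos bind DNA, differed by 0.49 on both of its probe sets, 1.41-fold on 1417409_at and 1.40-fold on 1448694_at. On 1417409_at, 5 of 9 knockout arrays stood above every wild-type array, with 8.81 to 9.70 in knockout and 8.14 to 9.06 in wild type. On 1448694_at, with medians of 8.23 in knockout and 7.71 in wild type, 6 of 9 knockout arrays stood above every wild-type array, and the lowest array was wild-type 1-1 at 7.04. Jun therefore overlapped between the genotypes on both probe sets.

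Jund, the Jun gene that is expressed without a stimulus in most cells, had a level of 8.97 to 9.93 in knockout and 8.92 to 9.32 in wild type on probe set 1449117_at. The difference was 0.33, or 1.26-fold, with overlap. Its dim probe set 1440265_at did not enter the fit and differed by -0.20, with 2 knockout arrays and 1 wild-type array at the floor.

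**Figure D1:**
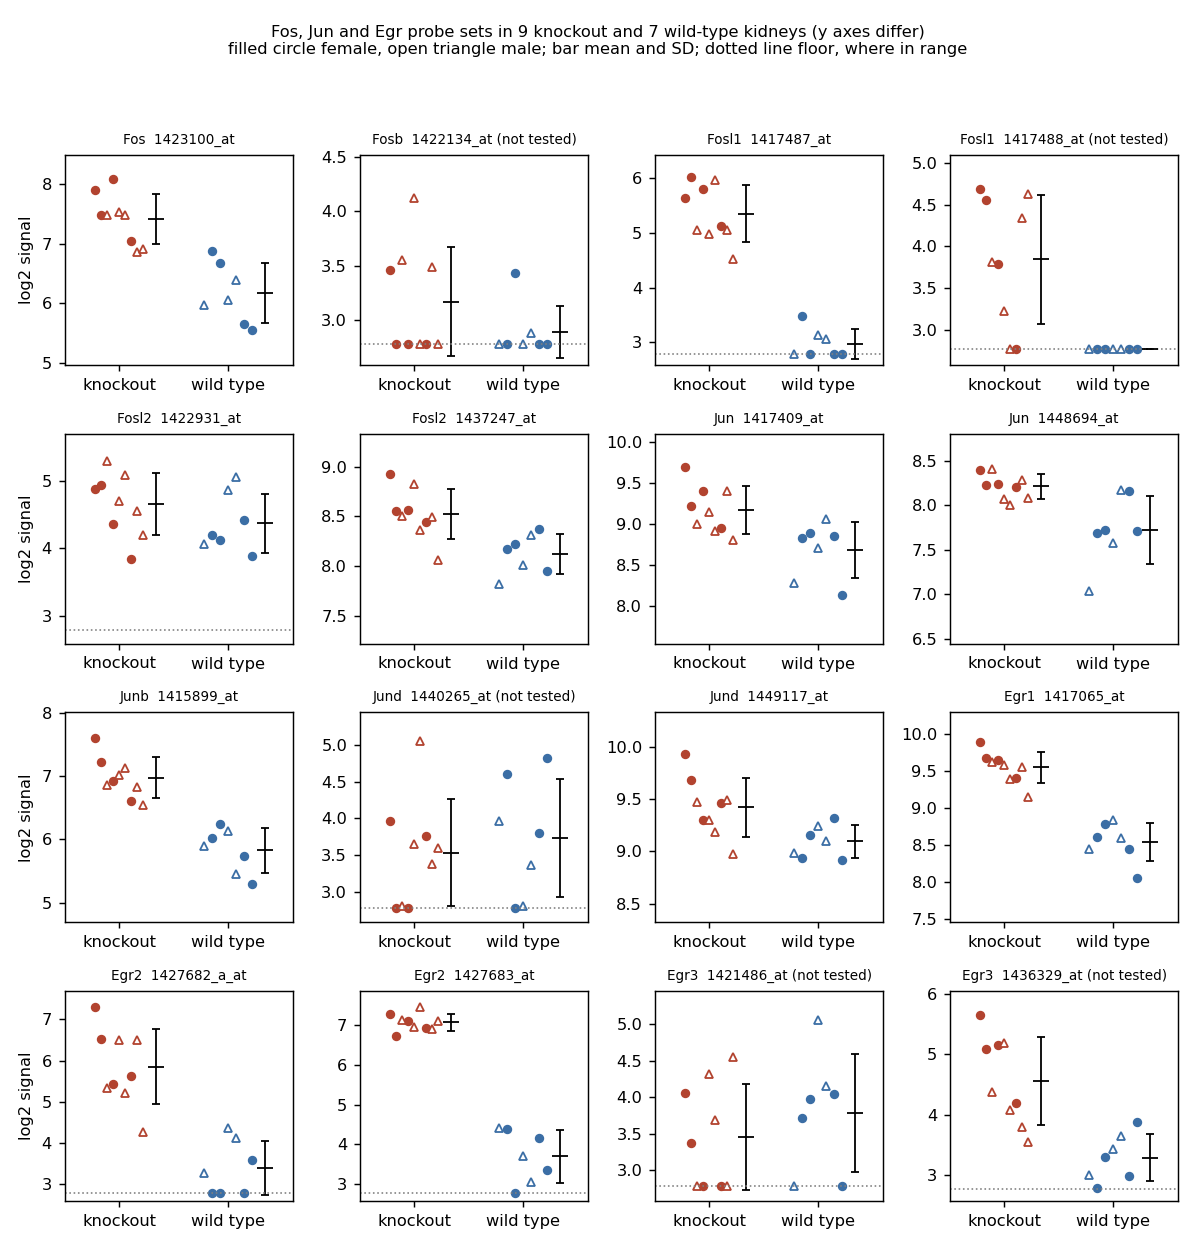
Log2 signal (vertical axes, which differ between panels) of all 16 probe sets of the 10 genes in 9 knockout kidneys (left, red) and 7 wild-type kidneys (right, blue), with filled circles for females, open triangles for males, bars for mean and SD, and a dotted line for the floor of 2.78. Egr1, Junb, Fosl1 on 1417487_at and Egr2 on 1427683_at have no knockout array at or below a wild-type array.

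By the differences of their tested probe sets, the members in the plot by array fall in 3 kinds: Egr2 and Fosl1 with at least 5.20-fold, Fos, Junb and Egr1 with 2.00 to 2.38-fold, and Jun, Jund and Fosl2 with at most 1.41-fold. The fit was made with limma across the 27399 probe sets that lay above the 40th percentile of their array on at least 7 of the 16 arrays. A probe set was called where its Benjamini-Hochberg adjusted p was under 0.05. Of the 16 member probe sets, 11 passed this filter, covering 8 of the 10 genes, and the other 5, both probe sets of Egr3 and 1 each of Fosb, Fosl1 and Jund, did not. The knockout arrays alone can meet that filter: Fosl1 on 1417487_at and both probe sets of Egr2 passed with 0 wild-type arrays above the percentile, so they had to differ, while 7 of the 11 were above it on all wild-type arrays. Of the 11, 9 were called higher in knockout, where 6.20% of all tested probe sets were called higher and 11.7% in either direction. All knockout arrays stood above all wild-type arrays for 4 of the 11, and for 2.06% of all tested probe sets. The uncalled ones were Jund 1449117_at and Fosl2 1422931_at. The median difference of the 11 was 1.00, against -0.01 over all tested probe sets. These counts and the median describe genes chosen for this contrast, here and in the brighter and dimmer arrays, and nothing is read from them. Without normalization between arrays the differences were about as large, at 0.50 and 0.52 for Jun on 1417409_at and 1448694_at and 0.42 for Fosl2 on 1437247_at, although these 3 were then not called and the calls over all probe sets numbered 573 in place of 3195.

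The members differed in how far their values moved with array brightness. In the brighter arrays alone the differences of Egr1, Junb, Fos and Egr2 on 1427683_at were 1.03, 1.13, 1.36 and 3.28, and in the dimmer arrays alone they were 1.05, 1.28, 1.27 and 3.42. These members had about the same difference in both sets. Jun on 1448694_at differed by 0.73 in the brighter and 0.18 in the dimmer arrays, and Jun on 1417409_at by 0.69 and 0.33 in that order. Fosl2 on 1437247_at differed by 0.66 in the brighter and 0.16 in the dimmer arrays, and Jund by 0.47 in the brighter and 0.20 in the dimmer arrays. The smaller differences of the family were thus larger among the brighter arrays. Egr2 on 1427682_a_at gave 3.25 in the brighter and 1.78 in the dimmer arrays, and Egr3 on 1436329_at gave 2.23 and 0.47 in that order. The filter again asked for 7 arrays, and 7 member probe sets passed it in each set. Of these, 6 were called in the brighter arrays, where 6.50% of all probe sets were, and 3 (Junb, Egr1 and Fos) in the dimmer arrays, where 5.56% were. The sets also differ in sex, with 3 of 4 brighter knockout pups and 1 of 5 dimmer knockout pups female, so brightness and sex are partly tied within the knockout. The difference between the sets was not tested.

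**Figure D2:**
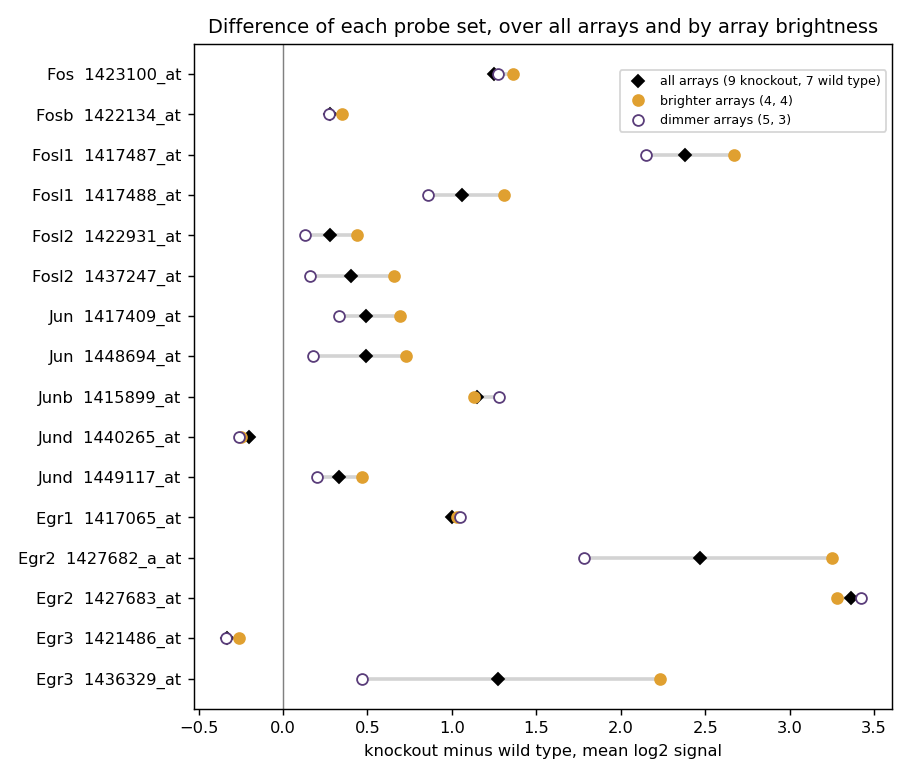
Knockout minus wild-type mean log2 signal (horizontal axis) of each of the 16 probe sets over all arrays (diamonds), the 8 brighter arrays (filled circles) and the 8 dimmer arrays (open circles). Egr1, Fos, Junb and Egr2 1427683_at have nearly coinciding points, while those of Egr3 1436329_at range from 0.47 to 2.23.

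Sex was not used in choosing the genes and could be tested. None of the 11 member probe sets differed between females and males with genotype in the model (limma adjusted p = 0.999 for each, and 0 of 11 at an unadjusted p under 0.05). The female minus male differences ran from -0.37 for Fosl2 on 1422931_at to 0.28 for Fosl1 on 1417487_at. Over all tested probe sets, 0.0766% were called for sex, and 859 had an unadjusted p under 0.05.

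The genotype difference was also not detectably larger in either sex. For the interaction of genotype and sex, 0 of 11 members were called (limma adjusted p from 0.488 to 0.98) and 1 had an unadjusted p under 0.05. That member, Egr2 on 1427682_a_at, had a knockout minus wild-type difference of 3.24 in females and 1.65 in males, 1.58 ± 0.69 (SE) apart. Its 3 wild-type arrays at the floor, 2-1, 2-2 and 4-2, were all females, so the female difference is a lower bound. The other Egr2 probe set had 3.34 in females and 3.38 in males, so the gap was not shared between them. Of all tested probe sets, 0% were called for the interaction, and 2790 had an unadjusted p under 0.05.

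Between kidneys of the same genotype, the same few arrays were often the highest or the lowest for the family. With each of the 8 tested genes taken at its brightest probe set, knockout 1-2 was the highest knockout array for 5 genes and above the knockout mean for all 8, by 0.42 on average. Knockout 5-2 was the lowest for 6 of the 8 genes, with a mean deviation of -0.42. Among the wild-type arrays, 5-1 was the lowest for 5 genes and below the mean for all 8, with a mean deviation of -0.38. Knockout 1-2 was the brightest array of the study and wild-type 5-1 the dimmest, with trimmed mean signals of 236 and 111.

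Over the 28 gene pairs within the 9 knockout kidneys, Pearson's r was above 0 for 24, with a median of 0.63 and a range of -0.18 to 0.89. Exact permutation tests gave an unadjusted p under 0.05 for 13 pairs, and 3 pairs passed adjustment over the 28, each with an adjusted exact permutation p = 0.0392. These were Fosl2 with Egr1 (r = 0.89, rho = 0.88), Jun with Egr1 (r = 0.85, rho = 0.83) and Jund with Egr1 (r = 0.87, rho = 0.75). Without the 2 arrays farthest from the median of the x gene, r was 0.53, 0.65 and 0.48 for these pairs in that order, so the relations rest partly on those arrays. By Spearman's rho no pair passed adjustment. For Fos with Egr1, r was 0.69 over 9 kidneys and 0.90 without the 2 farthest arrays, and for Fos with Junb it was 0.66 and 0.94 (adjusted exact permutation p = 0.10 for Fos with Egr1 and 0.106 for Fos with Junb). On its brighter probe set, 1427683_at, Egr2 had r between -0.18 and 0.32 against every other gene in knockout kidneys. The spread of that probe set there was small, at an SD of 0.22. Pairs with the other Egr2 probe set, 1427682_a_at, were not computed. That probe set had an SD of 0.92 and, like most of the 8 genes, was highest in knockout 1-2 and lowest in knockout 5-2.

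In the 7 wild-type kidneys the median r was 0.32 with a range of -0.29 to 0.86. It was above 0 for 20 of 28 pairs, 2 had an unadjusted exact permutation p under 0.05 and 0 passed adjustment (smallest adjusted exact permutation p = 0.289). Pairs were not correlated within the brighter or dimmer arrays of a genotype, which hold 3 to 5 kidneys each, too few for a correlation.

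The mean of the 8 genes was set beside 8 measures of the same kidneys within each genotype. Among the 9 knockout kidneys it correlated with array brightness at r = 0.73 (rho = 0.62, exact permutation p = 0.0171 for r and 0.0857 for rho, adjusted p = 0.137 over the 8 measures for r). Without the 2 farthest kidneys r was 0.50. With Havcr1, which encodes the tubule injury marker Kim-1, r was 0.70 (rho = 0.53, exact permutation p = 0.0375 for r and 0.148 for rho, adjusted p = 0.15 for r), and 0.60 without the 2 farthest. No relation of the family's mean with the 8 measures passed adjustment in either genotype.

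With the mean of 12 macrophage markers, r in the 9 knockout kidneys was 0.16 (rho = -0.20, exact permutation p = 0.648 for r and 0.613 for rho), and -0.66 without the 2 farthest kidneys. With the mean of 10 heat shock genes it was 0.06 (rho = 0.03, exact permutation p = 0.869 for r and 0.948 for rho). In the 7 wild-type kidneys r with brightness was 0.67 (rho = 0.43, exact permutation p = 0.102 for r and 0.354 for rho, adjusted p = 0.391 for r), and 0.10 without the 2 farthest. The 3 prime over 5 prime ratio of the Gapdh control, a measure of RNA integrity, had r = -0.60 with the family in knockout kidneys (rho = -0.67, exact permutation p = 0.0838 for r and 0.0589 for rho). That ratio did not separate the genotypes, at -0.50 to -0.14 in log2 in knockout and -0.44 to -0.18 in wild type (exact permutation p = 0.753, two-sided).

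**Figure D3:**
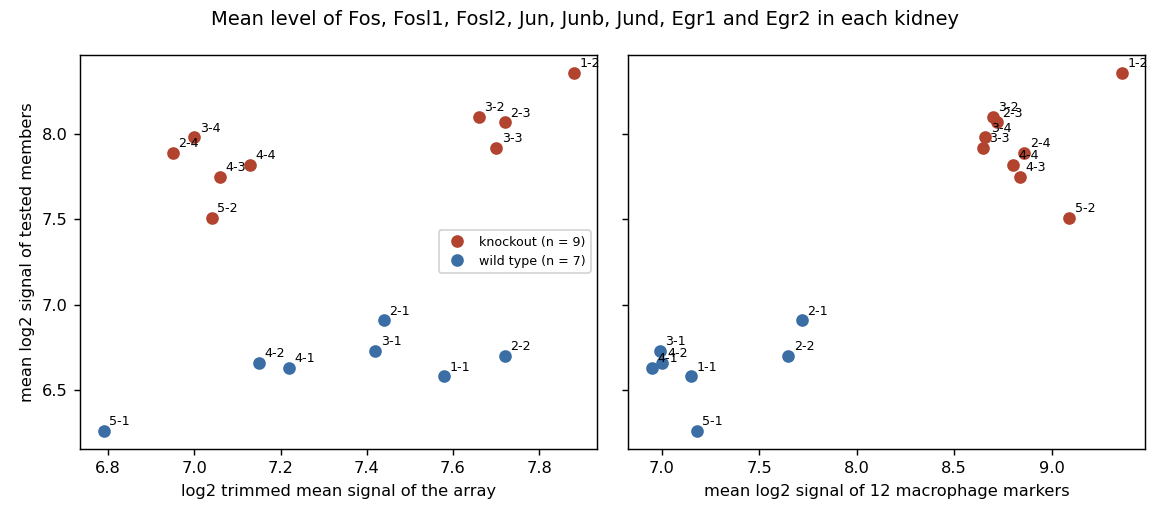
Mean log2 signal of the 8 tested genes in each kidney (vertical axis) against log2 trimmed mean signal of its array (left) and the mean log2 signal of 12 macrophage markers (right), for 9 knockout (red) and 7 wild-type (blue) kidneys labelled by number. The knockout kidneys lie between 7.51 and 8.36 and the wild-type kidneys between 6.26 and 6.91, and kidney 1-2 is highest on every axis.

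Other immediate early genes were taken as a textbook list of 35, each at its brightest tested probe set in the same fit. This list and those that follow were chosen with earlier results of these data known. The counts and adjusted p values given for them are therefore descriptions and not independent tests. Of the 32 that entered the fit, 12 rose in knockout kidneys, 0 fell and 20 were not called, where 8.43% of all 12511 tested genes rose and 7.29% fell. Their median difference was 0.30, against 0.00 over all tested genes. Socs3, a feedback inhibitor of cytokine signalling, rose 5.81-fold, with 8.35 ± 0.52 (SD, n = 9) in knockout and 5.81 ± 0.29 (SD, n = 7) in wild type (limma adjusted p = 1.57e-08). The stress gene Gadd45b rose 1.83-fold (limma adjusted p = 1.87e-05), and the zinc finger gene Klf6 2.18-fold (adjusted p = 3.96e-05). Myc rose 1.73-fold (adjusted p = 6.01e-05), and the matrix protein gene Ccn2 1.79-fold (adjusted p = 0.000203). These 5 were named because they had the smallest p of the called genes on the list. Every knockout array stood above every wild-type array for all 5, and for 2.06% of all tested probe sets. That follows largely from how they were picked, and some other called genes of the list overlapped between the genotypes. The classical members Nr4a1 (difference 0.34, limma adjusted p = 0.312), Nr4a2 (0.41, adjusted p = 0.192), Klf4 (0.55, adjusted p = 0.091) and Plk3 (0.53, adjusted p = 0.239) were not called.

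Partners that form dimers with Fos or Jun proteins also included called genes. Of 11 tested among 13 listed, 5 rose (8.43% of all tested genes did), 0 fell (7.29% did), and the median difference was 0.19. Atf3, itself induced by stress, rose 5.06-fold, with 7.38 ± 0.20 (SD, n = 9) in knockout and 5.04 ± 0.47 (SD, n = 7) in wild type (limma adjusted p = 3.25e-09). Atf4, the effector of the integrated stress response, rose 1.36-fold (limma adjusted p = 1.74e-05) and Batf3 1.64-fold (adjusted p = 0.00235). The other tested probe set of Atf4 was not called. Maff rose at least 2.85-fold with 3 wild-type arrays at the floor (limma adjusted p = 0.00476), and Batf at least 2.40-fold with 2 at the floor (adjusted p = 0.0288). Most wild-type arrays of Maff lay below the filter's percentile, so it entered the fit mainly through the knockout arrays. Batf and Batf3 are known mainly from lymphocytes and dendritic cells. Maf (-0.26), Mafk (0.19) and Jdp2 (0.11) were not called.

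Genes for the kinases and promoter factors that act above the family did not pass the test. Of 20 listed, 16 entered the limma fit and 0 were called, with 2 at an unadjusted p under 0.05, where 8.43% of all tested genes rose and 7.29% fell, and the median difference was 0.07. The largest differences were those of Map2k2 (0.26, limma adjusted p = 0.102), Mrtfa (0.25, adjusted p = 0.185) and the Egr co-repressor gene Nab1 (0.18, adjusted p = 0.247). These are mRNA levels, and the activity of the kinases was not measured.

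Of 20 genes listed as AP-1 or Egr targets, 13 entered the fit at their brightest probe set. Of these, 9 rose (8.43% of all tested genes did), 0 fell (7.29% did) and 4 were not called, and the median difference was 0.67. The protease inhibitor gene Timp1 rose 5.08-fold (limma adjusted p = 3.75e-10) and the tissue factor gene F3 3.36-fold (adjusted p = 2.39e-07). The adhesion receptor gene Cd44 rose 3.84-fold (limma adjusted p = 3.35e-07), and Plaur, the urokinase receptor gene, 2.18-fold (adjusted p = 3.98e-05). Ccl2, a monocyte attractant, rose at least 7.35-fold with 3 wild-type arrays at the floor (limma adjusted p = 6.72e-07). Most wild-type arrays of Ccl2 lay below the filter's percentile, so it entered the fit mainly through the knockout arrays. Hbegf, Pdgfb, Tgfb1 and Sphk1 also rose, but the other tested probe set of Sphk1 was not called (0.33, limma adjusted p = 0.252). Plau, the urokinase gene (-0.41, limma adjusted p = 0.273), and Ptges (0.28, adjusted p = 0.128) were not called. The cyclin gene Ccnd1 was not called at its brightest probe set (-0.36, limma adjusted p = 0.0577), but its other 2 tested probe sets fell, by 0.32 (adjusted p = 0.00848) and 0.29 (adjusted p = 0.0262). Several of these genes are also expressed by macrophages, whose markers are given next, and the part of cell composition in their differences was not tested.

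**Figure D4:**
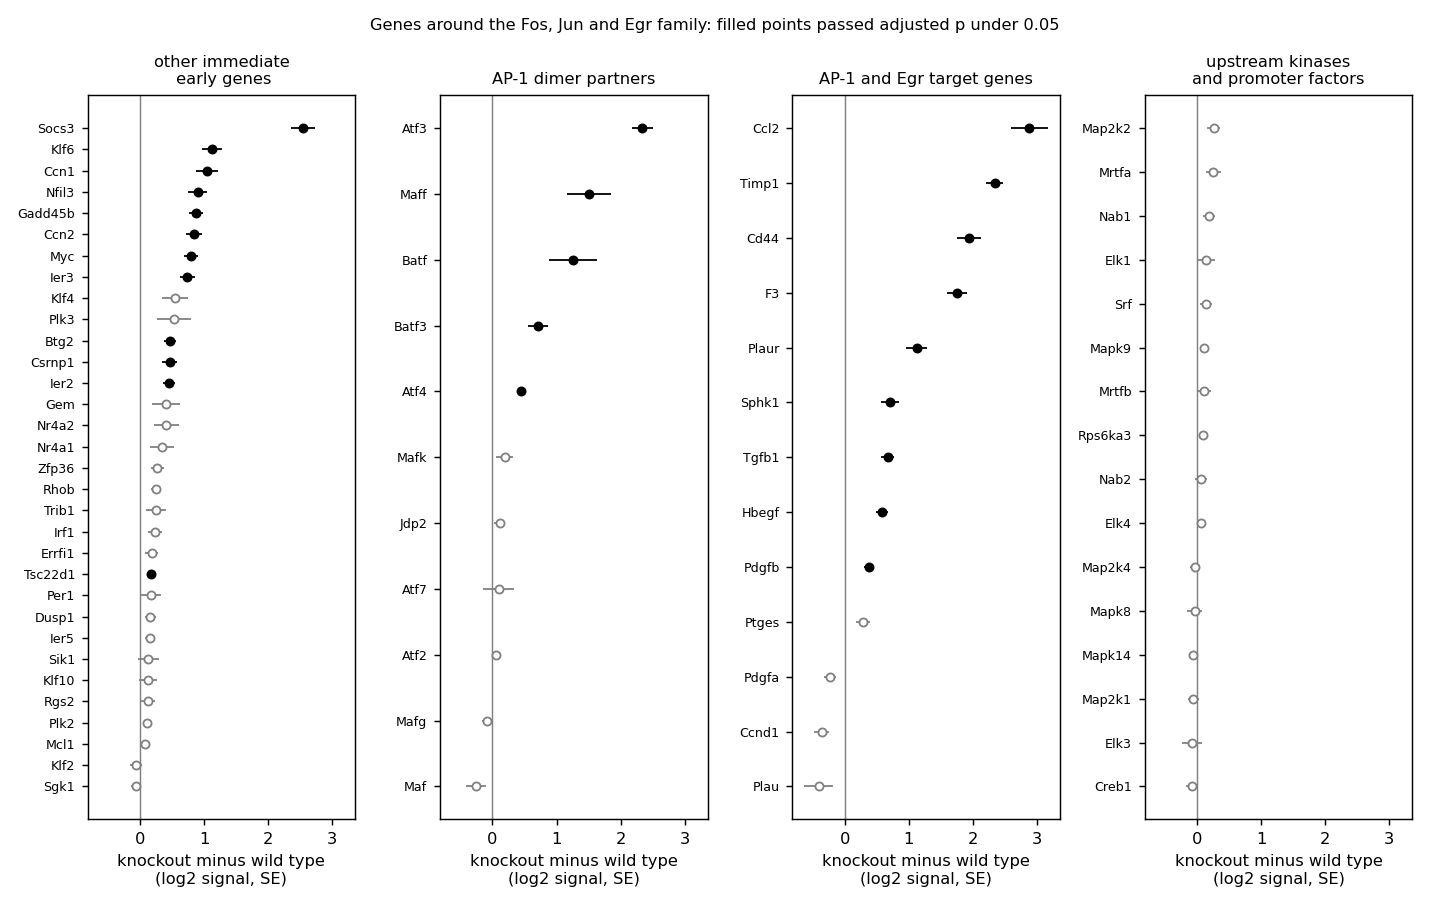
Knockout minus wild-type log2 signal with its limma SE (horizontal axes) of the tested genes in 4 lists around the family, each at its brightest probe set, with filled points for adjusted p under 0.05. Called genes, 12 of 32 other immediate early genes, 5 of 11 dimer partners and 9 of 13 targets, all lie to the right of 0, and 0 of 16 upstream genes are called.

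Markers of cell types and injury moved with the genotype beside the members. The counts for them stand beside 8.43% of all tested genes that rose and 7.29% that fell. All 12 macrophage markers rose, none lay at the floor on any array, and the mean of the list was 8.65 to 9.36 in knockout kidneys and 6.95 to 7.72 in wild-type kidneys. The defining marker Adgre1 was at 6.95 to 7.43 in knockout and 5.83 to 6.60 in wild type. Proximal tubule markers fell in 9 of 10 cases, with a list mean of 9.94 to 10.77 in knockout and 11.20 to 11.41 in wild type. Their part in the differences of the Fos, Jun and Egr genes was not tested.

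Injury markers rose as well. Havcr1 had 8.11 to 9.64 in knockout kidneys and 2.78 to 4.30 in wild-type kidneys, where 4 arrays lay at the floor. No wild-type array of Havcr1 lay above the filter's percentile. It passed through the knockout arrays alone and had to differ, so no test is read from it. Lcn2, a tubule secretory protein gene of acute injury, had 9.50 to 10.60 in knockout and 7.32 to 7.96 in wild type (limma adjusted p = 4.19e-10). Of 3 tested neutrophil markers 2 rose, S100a8 and S100a9, while Mpo, Elane and Camp did not pass the filter, and the list mean was 5.87 to 6.94 in knockout and 4.87 to 6.60 in wild type. Of 2 tested lymphocyte markers, Cd8a and Zap70, 0 were called, with 0 at an unadjusted limma p under 0.05. The defining markers Cd3e, Cd3d, Cd4, Cd79a and Ms4a1 did not pass the filter, and the list mean was 3.65 to 5.99 in knockout and 4.41 to 5.70 in wild type. Endothelial markers fell in 4 of 6 cases and podocyte markers in 2 of 5, fibroblast and smooth muscle markers rose in 4 of 9, and of 8 loop and collecting duct markers 1 rose and 2 fell. Genes of every kidney cell type listed were detected.

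Of 10 heat shock genes, which like the family respond to handling of tissue, 1 rose and 0 fell. Over all tested genes 8.43% rose and 7.29% fell, so the count is near that share. The part of tissue handling in these data was not tested. The small heat shock protein gene Hspb1 rose 2.37-fold, with 10.87 ± 0.19 (SD, n = 9) in knockout and 9.62 ± 0.21 (SD, n = 7) in wild type (limma adjusted p = 1.02e-08). The other 9 were not called at their brightest probe sets, though 1 of 2 further tested probe sets of Hsp90aa1 was called higher. The differences of Hspa1b (-0.25), Hsph1 (-0.21) and Hspa1a (0.10) had limma adjusted p from 0.345 to 0.699. The list mean was 10.30 to 10.52 in knockout kidneys and 10.16 to 10.50 in wild-type kidneys (exact permutation p = 0.0746, two-sided).

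The genes whose deviations from their genotype means were most like those of the family's mean over the 16 kidneys were Ajuba (r = 0.91), Uap1 (0.90), Atl3 (0.89), Gna13 (0.88), Zmynd11 (0.88) and Rras2 (0.87). These are descriptions over 16 arrays that share the same brightness and RNA quality as the members. Of the 6, Rras2 rose by 0.58 (limma adjusted p = 0.0028), Uap1 by 0.33 (adjusted p = 0.0358) and Gna13 by 0.25 (adjusted p = 0.0327) in knockout kidneys. Ajuba, a LIM protein gene with a difference of 0.08, Atl3, with 0.14, and Zmynd11, with -0.07, were not called.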

How the data were processed

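Kidney RNA of 16 pups was measured on 16 arrays, and genotype, sex and animal number were taken from the labels. The deposited values are signal intensity per probe set on a linear scale, made by the authors with GCOS 1.3 per the submitters' processing notes. The sources used here do not give how arrays were scaled to each other, and trimmed means differed 2.13-fold, so intensities were quantile normalized, given a floor at the 20th percentile and put on a log2 scale. Quantile normalization would hide a change in total mRNA, and a floor understates changes of dim genes.

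Members and lists were chosen with earlier results of these data known. Gene names come from the platform's annotation table (34958 probe sets name 1 gene, 932 several and 9211 are not listed), and all probe sets of the members are shown. Control probe sets (64) and those not above the 40th percentile of their array on at least 7 arrays were left out of tests. Genotype was the term of a linear model in limma 3.58.1 (R 4.3.3), moderated by eBayes with its trend option, with sex added for its effect and the interaction, and Benjamini-Hochberg adjustment ran over all 27399 probe sets. The fit was tested on simulated data. Single measures and correlations used exact permutation tests, two-sided. Named genes are the members, Aqp11, Havcr1, Lcn2, from each list up to 5 called genes with the smallest p and up to 3 uncalled ones with the largest difference, and the 6 most alike genes. Nr4a1, Adgre1, Hbegf, Pdgfb, Tgfb1, Sphk1, Mrtfb and the named neutrophil and lymphocyte markers were named after their values were seen. The division into brighter and dimmer arrays lies at the largest step between neighbouring trimmed mean signals on the log2 scale. Scan dates are not given in the sources used here. Alternatives were other scalings, floors, filters and variance models, sex, brightness and animal number as terms, and each array left out. Figures were drawn with matplotlib 3.10.9.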

Additional observations from a re-analysis of the deposited data

Results flagged for a closer look

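Of 31 sets of values examined, each a member probe set within a genotype, 1 held an array far from the others. Fosb on 1422134_at had a log2 signal of 3.43 in wild-type array 2-2, while the next highest wild-type array, 4-1, had 2.88 and the other 5 lay at the floor of 2.78. The gap was 0.85 of the whole range. Chance alone flags about 1 in 20 sets of untied values. That rate does not apply to this set, where 5 of 7 values are tied at the floor, and the flagged value is itself close to the floor.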

How the results depend on the processing

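No member difference changed sign under the 31 alternatives. Of the 3195 probe sets called, 53.2% were higher in knockout, and without normalization between arrays 573 were called, 65.4% higher. The brighter arrays alone gave 1632 and the dimmer arrays alone 1359, with fewer arrays and fewer probe sets tested, and leaving out each array in turn gave 2565 to 3191. Member probe sets called were 3 of 7 in the dimmer arrays alone, against 9 of 11 over all arrays, and numbered 7 to 10 with each array left out. Fosl1 and Egr2 did not pass the filter in the dimmer arrays or in the brighter arrays, so they were not tested in either set. The filter asks for 7 arrays, and the brighter set holds 4 knockout arrays and the dimmer set 5. Jun on 1417409_at lost its call without wild-type array 1-1 or 5-1 and Fosl2 on 1437247_at without 1-1, while Jund on 1449117_at was called in 10 of 32 settings. Without normalization, the other immediate early genes called were 6 in place of 12 (12 to 13 with each array left out), dimer partners 2 (Atf3 and Maff) in place of 5, and targets 5 in place of 9. Dimer partners were 3 with a filter at the 60th percentile, 3 in the brighter arrays and 2 in the dimmer arrays. Map2k2 was called among the upstream genes with array weights, with the block and without knockout 3-3 or wild-type 5-1, Mrtfb in the brighter arrays, and Hspa1b among the heat shock genes in the dimmer arrays. Among the targets, Ccnd1 was called lower with the block, the brightness block, array weights, only the brightest probe set per gene, the brighter arrays alone, and without knockout 2-4, knockout 3-4 or wild-type 4-2. Sex and interaction calls among the members stayed at 0 in every alternative. Dim members moved with the floor: with log2 of the signal plus 16, the difference was 1.41 for Fosl1 on 1417487_at, 2.37 for Egr2 on 1427683_at, 1.59 for Egr2 on 1427682_a_at and 0.65 for Egr3 on 1436329_at, and with a floor at the 10th percentile it was 3.01 for Fosl1 on 1417487_at and 2.47 on 1417488_at. With the animals' leading number as a replicate block, 3914 probe sets were called. That number runs from 1 to 5 and may mark the breeding pair, which the labels do not say, and the deviations of knockout and wild-type arrays that share it correlated at 0.02, 0.04, -0.06, 0.15 and 0.29 for numbers 1 to 5, so it was not taken as a pairing. Other causes of these shifts were not tested. Signal close to the floor limits what can be said of Fosb, Egr3 and the dim probe sets of Fosl1 and Jund.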
